A study of Homo sapiens with 20 samples.

Results

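The cytosolic ribosomal protein genes were followed through the DNA damage response of U2-OS cells, a human osteosarcoma line. They were taken by name: every row of the deposited count table whose symbol is RPL or RPS followed by a number, with at most an A, X or L behind it, or RPLP0, RPLP1 or RPLP2. This rule found 79 of the 20314 genes in the table. Of these, 75 were core genes, 29 of the small and 46 of the large ribosomal subunit, and 4 were paralogs with an L ending (RPS27L, RPL39L, RPL10L and RPL3L), which are described apart from the core. The names did not depend on any measured value.

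Ribosomal proteins assemble with ribosomal RNA into the small subunit, which decodes mRNA, and the large subunit, which joins amino acids. Their mRNAs usually begin with a run of pyrimidines, the terminal oligopyrimidine (TOP) tract, through which mTOR signalling controls their translation together. Several free ribosomal proteins, RPL5, RPL11 and RPL23 among them, bind MDM2 when ribosome assembly is disturbed and thereby tie ribosome production to p53, which is also activated by DNA double-strand breaks.

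The 20 libraries formed 4 groups of 5 biological replicates each: untreated cells, cells 90 min after a dose of 20 Gy of irradiation (IR), cells 7 days after 20 Gy, and cells that were not irradiated but carried an shRNA targeting NFKBIA, which encodes the NF-κB inhibitor IκBα. The time points stand for the rapid first phase of NF-κB activation and for the second phase in senescent cells, and the knockdown asks what IκBα loss does in the absence of damage. The study describes the knockdown as doxycycline-inducible, in lentiviral lines selected as clones in puromycin. The methods also mention a scrambled control, but no library is labelled as such and the labels of the untreated cells name neither vector nor doxycycline, so that the knockdown cannot be told apart from clonal selection, vector or drug. The libraries held between 22535659 and 40390961 counts. The osteoblast lineage genes RUNX2, SPARC and COL1A1 were detected in every library, while SP7 had 0 to 3 and IBSP 0 to 1 counts and COL1A2 had 4 to 21.

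Sequencing lanes ran alongside the groups. Untreated replicates 1 to 4 were in lane 2, untreated replicate 5 was in lane 3 with 90 min replicates 1 to 3, and no knockdown library shared a lane with an untreated one, so that a comparison with untreated cells within a lane rests on a single untreated library. Lane 4 held 90 min and 7 days libraries, and lane 5 held 7 days libraries and knockdown replicate 1. The untreated library in the shared lane, replicate 5, stood apart in the ribosomal genes. Of the 74 core genes that could be tested, it was the highest untreated library in 17 and the lowest in 38, and untreated replicate 4 was the highest in 57. Over all 14992 genes tested, replicate 5 was the highest in 35.2% and the lowest in 37.8%, and replicate 4 was the highest in 29.1% and the lowest in 29.9%. Where leaving out these libraries changed a call or moved a value widely, the value without them is given too.

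The paralog pair RPS27 and RPS27L is shown first, since among the members tested the largest rise at 7 days post-IR was that of RPS27L and its identity rests on how far it differs from RPS27. RPS27L is a p53-inducible copy of RPS27, a small subunit protein. The coding sequences of the principal transcripts RPS27-201 and RPS27L-201 (GENCODE 29) are both 252 bases long without the stop codon and differ at 56 positions, an identity of 77.8%. Capitals mark the bases that differ.
RPS27: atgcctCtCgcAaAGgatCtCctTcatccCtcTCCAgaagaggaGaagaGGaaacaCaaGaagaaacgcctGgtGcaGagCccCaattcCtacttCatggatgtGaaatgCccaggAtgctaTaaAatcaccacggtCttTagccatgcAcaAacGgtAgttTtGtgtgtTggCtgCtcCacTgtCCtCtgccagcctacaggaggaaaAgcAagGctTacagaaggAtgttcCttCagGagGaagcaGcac
RPS27L: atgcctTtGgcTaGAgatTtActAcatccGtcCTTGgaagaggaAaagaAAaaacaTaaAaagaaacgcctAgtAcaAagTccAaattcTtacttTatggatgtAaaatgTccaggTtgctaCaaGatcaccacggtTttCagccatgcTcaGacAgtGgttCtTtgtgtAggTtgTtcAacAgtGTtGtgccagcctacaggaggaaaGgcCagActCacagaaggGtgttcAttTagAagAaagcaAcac

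The longest stretch shared by the transcripts of this pair was 20 bases, shorter than the reads of 100 bases. RPL39 and RPL39L shared 67 bases, RPL10 and RPL10L 50 and RPL3 and RPL3L 26. All 4 stretches are shorter than a whole read, although trimmed reads may be shorter too.

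The annotated transcription starts were compared with the TOP tract. RefSeq gave a start in GRCh38.p14 for 60 core genes and 2 paralogs. A C at the start followed by C or T up to a run of at least 5 bases, read on the sense strand at the start position only, was found in 45 of the 60 core genes (75.0%), in 0 of the 2 paralogs and in 5.1% of the 27305 genes with a start in RefSeq. Mitochondrial ribosomal protein genes, whose products work in another ribosome, held it in 6 of 69 (8.7%). The following windows run from 15 bases before the start to 15 from it for the genes that the results below turn on, with the pyrimidine run in capitals where it reached that length.
RPS27 (chr1:153990747-153990776, plus strand): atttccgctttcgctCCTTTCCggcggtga
RPS27L (chr15:63157463-63157492, minus strand): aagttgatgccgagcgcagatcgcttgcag
RPS3A (chr4:151099613-151099642, plus strand): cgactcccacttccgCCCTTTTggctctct
RPL22 (chr1:6199581-6199610, minus strand): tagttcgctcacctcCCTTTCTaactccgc
RPL28 (chr19:55385917-55385946, plus strand): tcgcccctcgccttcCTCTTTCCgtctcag
RPL41 (chr12:56116618-56116647, plus strand): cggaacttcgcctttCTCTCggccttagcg
RPL36A (chrX:101390996-101391025, plus strand): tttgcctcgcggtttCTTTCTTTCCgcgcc
RPS29 (chr14:49598696-49598725, minus strand): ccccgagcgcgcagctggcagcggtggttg
RPS27 thus starts with the run and RPS27L does not at these annotated positions. RPS29 also lacks it in this window, while RPL22, RPL41, RPL28, RPL36A and RPS3A have it.

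Levels were compared between genes per kilobase of the gene width in the table, in CPM of untreated cells. CPM are counts scaled to a common library total and adjusted by the TMM factor of the library. Among the highest were RPL8 with 783 ± 138 CPM per kb (SD, n = 5) and RPS12 with 763 ± 308, which lay within their spread of each other. RPLP1, a protein of the ribosomal stalk, was at 451 ± 76.2, and the median of the 79 genes was 122. At the low end were RPS27 with 5.04 ± 0.645, RPS28 with 3.17 ± 1.84, RPL21 with 2.95 ± 0.398 and RPL36A with 2.76 ± 0.388 CPM per kb. RPL3L had 1 to 12 counts in a library and did not pass the filter on low counts. How reads that match several places were counted is not given in the sources used here, and ribosomal protein genes have many processed copies. GENCODE 29 names 66 pseudogenes for RPL21, 19 for RPL36A, 15 for RPS27 and 3 for RPS28. Across the 75 core genes, the number of named pseudogenes and the level per kb had a Spearman rho of -0.25. Whether copies lowered the counts of single genes was not tested. RPL17 and RPS10 also overlap read-through genes with rows of their own.

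The share of the libraries that the core genes took as a whole was 4.01, 3.58, 3.60, 4.90 and 3.20% of all counts in untreated replicates 1 to 5, 3.74, 3.33, 3.52, 3.46 and 3.52% at 90 min, 3.61, 3.84, 3.64, 3.65 and 3.56% at 7 days and 4.36, 4.17, 4.24, 3.79 and 4.14% with NFKBIA shRNA. The untreated libraries span both irradiated groups and, with replicate 4, the knockdown. Group means were 3.86 ± 0.651% (SD, n = 5) in untreated cells, 3.51 ± 0.147% at 90 min, 3.66 ± 0.110% at 7 days and 4.14 ± 0.212% in the knockdown. With all 5 untreated libraries, their SD was larger than the distance of any treated mean from the untreated one. Without untreated replicates 4 and 5 the untreated mean was 3.73 ± 0.241% (SD, n = 3), the 90 min and 7 days means lay within that SD of it and the knockdown mean lay farther off, with 4 of 5 knockdown libraries above the 3 untreated ones.

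**Figure D1:**
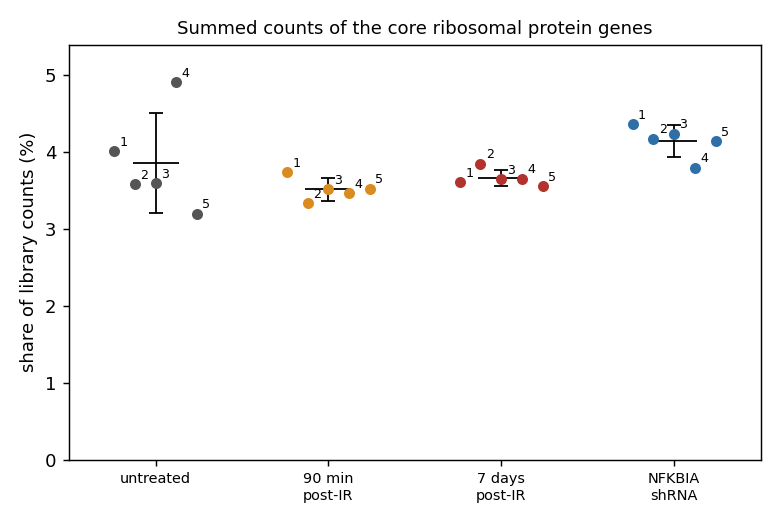
Share of library counts, in percent, taken by the 75 core genes in each library (points, numbered by replicate) of the 4 groups, with mean and SD (bars). The untreated libraries run from 3.20 to 4.90%, and the 90 min and 7 days libraries all lie inside that range.

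The spread of the core genes within a library was measured next. The difference of each gene from the core median of its library was taken in log2 CPM, and its SD over the 20 libraries was 0.14 in the median gene, with 63 of 74 genes (85.1%) under 0.25. Over all genes tested, measured against the same core median, the median SD was 0.28 and 40.6% were under 0.25. The median SD of log2 CPM itself was 0.20 in the core and 0.24 in all genes. The most variable were RPL39 (SD 0.42), RPS28 (0.37), RPL17 (0.36), RPS3A (0.35) and RPL27 (0.33). In RPL27, RPS28, RPL17 and RPS3A it was untreated replicate 5 that lay apart, with 1066 CPM of RPL27 against 382 to 547 in the other untreated libraries, 13.6 CPM of RPS28 against 4.30 to 5.87, 42.4 CPM of RPL17 against 122 to 167 and 32.9 CPM of RPS3A against 72.1 to 108. For RPL39 this library (33.1 CPM against 10.3 to 17.9) and knockdown replicates 4 and 5 (10.2 and 7.48 CPM against 16.4 to 17.2) diverged in opposite directions.

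Next, the first phase was compared with untreated cells. A gene was called when its log2 fold change exceeded 0.5 in size at an adjusted p under 0.05 by the quasi-likelihood test of edgeR, adjusted over all genes by the Benjamini-Hochberg method. At 90 min post-IR, 0 of 74 core genes were called higher and 2 lower, against 3.66% of all genes called in either direction (2.08% higher and 1.57% lower). At any fold, 2 core genes rose and 17 fell at an adjusted p under 0.05, where 11.1% of all genes rose and 10.2% fell (21.3% together). These counts became 1 and 43 without untreated replicate 5 (14.8 and 17.5% of all genes), 4 and 7 without replicates 4 and 5 (14.1 and 14.9%), and 3 and 1 with libraries scaled to the core median, where 15.1% of all genes rose and 0.987% fell. They were 1 and 4 without 90 min replicate 2 (9.05 and 5.43% of all genes) and 0 and 1 with the 2 groups fitted alone (5.84 and 1.83%). With sequencing lane as a factor they were 26 and 20 (23.5 and 21.9%). The median core gene lay at -0.13 on the log2 scale and the median of all genes at -0.03. Without untreated replicate 4 both medians were -0.03, and the core median was 0.08 with lane as a factor and 0.07 within lane 3. The medians were -0.12 in the small and -0.14 in the large subunit. The 95% interval of the change stayed within 0.5 in either direction for 62 of the 74.

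The called genes were RPL27 and RPS29, proteins of the large and the small subunit. RPS29 had 414, 358, 376, 538 and 430 CPM in untreated replicates 1 to 5 and 322, 267, 283, 299.7 and 324 CPM at 90 min. The groups did not overlap, and the log2 fold change was -0.50 ± 0.12 (SE, edgeR adjusted p = 0.00424, exact two-sided permutation p = 0.00794, the smallest that 5 against 5 allows). It was -0.41 without untreated replicate 4 and -0.36 without replicates 4 and 5 (adjusted p = 0.0104 and 0.0131), short of the 0.5 threshold. Non-overlapping libraries were found in 12.3% of all genes (7.42% higher and 4.85% lower) and in 2 of 74 core genes, both lower. RPL27 did not separate the groups. Its untreated values were 430.1, 382, 402, 547 and 1066 CPM and those at 90 min 427, 368, 377, 377 and 389 CPM, so the groups overlapped and replicate 5 alone was high. Its log2 fold change of -0.54 ± 0.19 (edgeR adjusted p = 0.0444) became -0.19 (adjusted p = 0.0599) without that library.

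Other falls were smaller. RPL28, a large subunit protein, changed by -0.43 ± 0.14 (edgeR adjusted p = 0.0289) and RPL38 by -0.34 ± 0.11 (adjusted p = 0.0247) on the log2 scale. Without untreated replicate 5 the change of RPL28 was -0.21 (adjusted p = 0.0274) and that of RPL38 -0.24 (adjusted p = 0.0419). Without replicate 4 RPL38 changed by -0.28 (adjusted p = 0.0587). Neither passed without both, with changes of -0.10 in each and adjusted p of 0.13 for RPL28 and 0.246 for RPL38. In the opposite direction, RPL36A rose by 0.30 ± 0.08 (adjusted p = 0.00909) and RPL21 by 0.27 ± 0.09 (adjusted p = 0.0352). RPL36A had 9.23, 10.5, 10.6, 10.4 and 13.4 CPM in untreated cells and 13.9, 14.4, 12.5, 12.2 and 13.2 CPM at 90 min. Here replicate 5 stood on the irradiated side, and without it the change was 0.37 (adjusted p = 0.000124). Within lane 3, where it is the only untreated library, the change of RPL36A was 0.02 (adjusted p = 0.936), and with lane as a factor it was 0.02 as well (adjusted p = 0.887). The change of RPL21 without replicate 5 was 0.23 (adjusted p = 0.0515), and within lane 3 it was 0.46 (adjusted p = 0.0724).

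**Figure D2:**
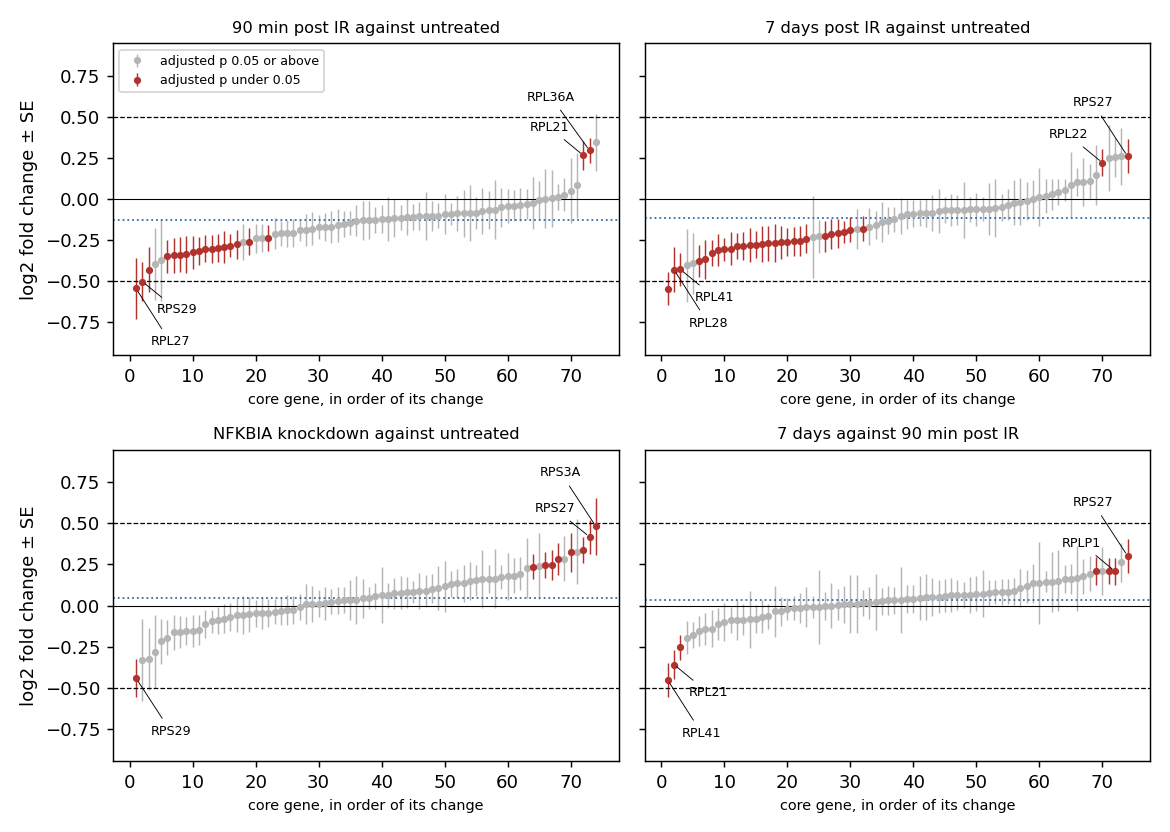
Log2 fold change with SE (points with bars) of the 74 core genes tested, in order of their change, in each of the 4 comparisons; red marks an edgeR adjusted p under 0.05, dashed lines stand at -0.5 and 0.5 and the blue dotted line at the median. Most genes lie between the dashed lines, with medians of -0.13, -0.11, 0.04 and 0.03.

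At 7 days post-IR, in the second phase, the core genes again showed few calls. Of 74, 0 were called higher and 1 lower, against 31.1% of all genes in either direction (16.7% higher and 14.4% lower). At any fold, 2 rose and 27 fell at an adjusted p under 0.05, where 32.9% of all genes rose and 31.2% fell (64.2% together). Without untreated replicate 4 the counts were 4 and 18 (32.3 and 33.7% of all genes). Without replicate 5 they were 2 and 36 (34.6 and 35.4%), and without both 5 and 20 (35.2 and 35.7%). They were 0 and 13 with the 2 groups fitted alone (27.5 and 27.3%) and 3 and 19 with libraries scaled to the core median (31.2 and 23.9%). With sequencing lane as a factor more were higher than lower, 25 and 16 (28.1 and 25% of all genes). The median change was -0.11 in the core and 0.01 in all genes, but -0.03 and -0.01 without untreated replicate 4, and 0.11 and 0.07 with sequencing lane as a factor. As reported, 56 of 74 intervals stayed within 0.5 in either direction.

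RPS29 was lower at 7 days too, with 313, 341, 322, 336 and 329 CPM against the untreated values above, a change of -0.37 ± 0.12 (edgeR adjusted p = 0.00956) that became -0.24 without untreated replicates 4 and 5 (adjusted p = 0.0463). Groups did not overlap in 4 core genes, all lower, against 44.8% of all genes (24.4% higher and 20.4% lower).

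RPL41, the smallest ribosomal protein, split the 2 time points. It had 22.7, 19.7, 24.5, 30.8 and 28.6 CPM in untreated cells, 29.6, 24.7, 23.0, 24.1 and 26.7 CPM at 90 min and 18.5, 20.0, 16.7, 19.4 and 19.1 CPM at 7 days. The change at 7 days was -0.43 ± 0.10 against untreated cells (edgeR adjusted p = 0.00102) and -0.45 ± 0.10 against 90 min (adjusted p = 0.000577), where the libraries did not overlap. RPL28 fell by 0.43 on the log2 scale (SE 0.14, adjusted p = 0.00911) and by 0.23 without untreated replicate 5 (adjusted p = 0.00763), and RPL35 fell by 0.38 (SE 0.10, adjusted p = 0.00192). Without untreated replicates 4 and 5 the changes were -0.27 in RPL41, -0.11 in RPL28 and -0.18 in RPL35 (adjusted p = 0.0073, 0.0373 and 0.0123). RPLP0, the stalk protein often used as a reference in qPCR, was also lower at 7 days, at -0.29 ± 0.08 (adjusted p = 0.00357). Its change was -0.23 without untreated replicate 4 (adjusted p = 0.00383) and -0.38 without replicate 5 (adjusted p = 1.34e-05). Leaving out both gave -0.30 (adjusted p = 8.66e-06). The fit that included sequencing lane, which rests on untreated replicate 5, gave 0.10 instead (adjusted p = 0.609).

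Among core genes higher at 7 days were RPL22 and RPS27. RPL22 had 77.4, 73.6, 69.7, 92.6 and 57.9 CPM in untreated cells and 89.7, 89.0, 87.6, 84.0 and 83.4 CPM at 7 days. All 7 days libraries exceeded 4 of the untreated ones but not replicate 4, and the change of 0.22 ± 0.08 (edgeR adjusted p = 0.0204) fell to 0.13 without replicate 5 (adjusted p = 0.0755). RPS27 rose by 0.26 ± 0.10 (adjusted p = 0.034), which missed an adjusted p of 0.05 in 10 of 20 fits that each left out 1 library, the lowest change being 0.20. With lane as a factor, RPS29, RPL41 and RPS27 missed an adjusted p of 0.05 at 7 days (0.141, 0.0709 and 0.637). Their changes in that fit were -0.50, -0.55 and 0.17, and those of RPL28, RPL35 and RPL22 were -1.08, -0.63 and 0.65. RPL13A, another qPCR reference, differed by -0.01 ± 0.14 (adjusted p = 0.937).

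**Figure D3:**
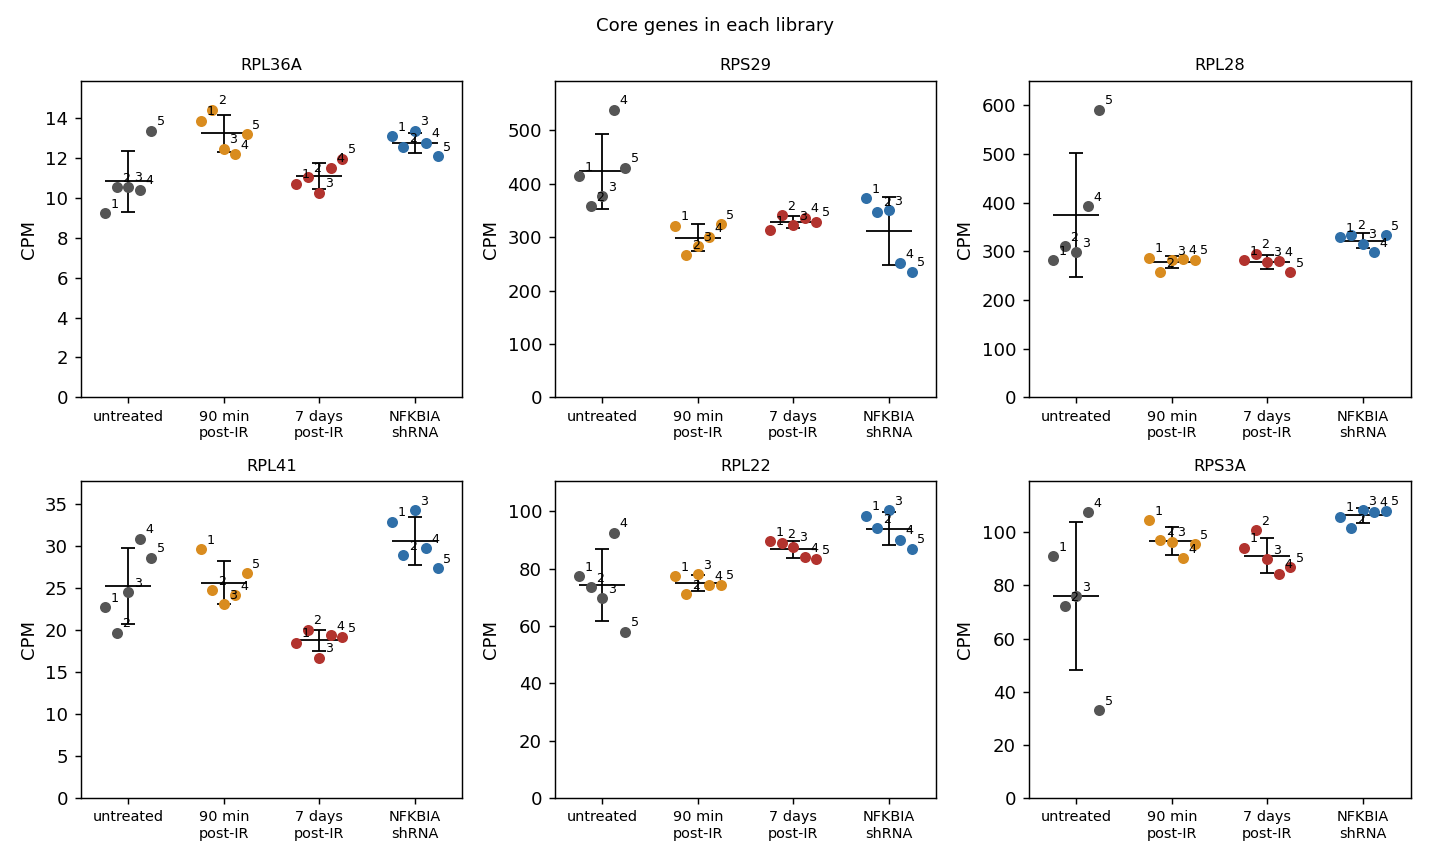
CPM of RPL36A, RPS29, RPL28, RPL41, RPL22 and RPS3A in each library (points, numbered by replicate), with mean and SD (bars). RPL41 is lowest at 7 days and RPS3A is at 32.9 CPM in untreated replicate 5.

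Directly compared, 7 days and 90 min gave 0 core genes called in either direction against 29.3% of all genes (16.8% higher and 12.6% lower). In 9 core genes all 7 days libraries were higher and in 5 all were lower, against 61.8% of all genes (31.9% higher and 29.9% lower). With values relative to the core median of each library these were 7 higher and 30 lower, against 22.6 and 34.2% of all genes. Besides RPL41, RPL21 fell by 0.36 ± 0.09 (edgeR adjusted p = 0.0014) and RPL36A by 0.25 ± 0.08 (adjusted p = 0.0069), the pair that was higher at 90 min than in untreated cells. RPS27 rose by 0.30 ± 0.10 (adjusted p = 0.0157), and RPL22, RPLP1 and RPS18 each by 0.21 (adjusted p = 0.0299, 0.0357 and 0.0421). With 1 library left out, RPS27 missed an adjusted p of 0.05 in 3 of 20 fits, RPL22 and RPLP1 in 13 and RPS18 in 14, and with libraries scaled to the core median RPS27, RPL22, RPLP1 and RPS18 had adjusted p of 0.0603, 0.125, 0.133 and 0.0852. With lane as a factor the adjusted p was 0.0528 for RPL21, 0.0593 for RPL36A, 0.251 for RPS27, 0.117 for RPLP1 and 0.0735 for RPS18. Their changes in that fit were -0.34, -0.22, 0.25, 0.26 and 0.25. Within lane 4 RPS27 alone among these missed 0.05 (change 0.23, adjusted p = 0.159). At an adjusted p under 0.05, 4 core genes rose and 3 fell, where 32% of all genes rose and 28.9% fell (60.9% together). The counts were 0 and 12 with libraries scaled to the core median (21.8 and 31.7% of all genes) and 19 and 13 with these groups fitted alone (38.3 and 37.2%). Without untreated replicates 4 and 5, whose spread enters the shared fit, they were 14 and 12 (37.3 and 36.7%).

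In the knockdown libraries the targeted gene was checked first. NFKBIA had 326 to 443 counts with the shRNA and 850 to 1097 in untreated cells, a log2 fold change of -1.36 ± 0.11 (edgeR adjusted p = 4.87e-09). It had 2647 to 3475 counts at 90 min and 853 to 1125 at 7 days. In the core, 0 of 74 genes were called in either direction with NFKBIA shRNA, against 12.7% of all genes (5.18% higher and 7.53% lower). At any fold, 8 rose and 1 fell at an adjusted p under 0.05, where 19.5% of all genes rose and 21.1% fell (40.5% together). At an unadjusted p under 0.05 there were 9 and 1, where 3524 of the 14992 genes tested rose and 3767 fell. Without untreated replicate 4 there were 19 and 1 at an adjusted p under 0.05 (19.2 and 25.2% of all genes). Without replicates 4 and 5 there were 29 and 1, where 22.1% of all genes rose and 26.6% fell. The counts were 4 and 4 without untreated replicate 2 (20.5 and 21.8% of all genes) and 4 and 1 without replicate 3 (18.1 and 20%). They were 2 and 1 with the 2 groups fitted alone (13.2 and 14.3%) and 29 and 3 with sequencing lane as a factor (16.4 and 16.2%). DESeq2 called 0 as well. The median core change was 0.04, between -0.0024 and 0.12 with 1 library left out, and that of all genes -0.01, and in 0 of 74 core genes did the libraries separate, against 24.1% of all genes (12.3% higher and 11.8% lower).

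RPS3A, a small subunit protein, rose by 0.48 ± 0.17 on the log2 scale (edgeR adjusted p = 0.0317). It had 91.1, 72.1, 76.0, 108 and 32.9 CPM in untreated cells and 106, 102, 108, 108 and 108 CPM in the knockdown, where untreated replicate 4 reached the knockdown values. Without replicate 5 its change was 0.28 (adjusted p = 0.00844). RPS27 rose by 0.42 ± 0.10 (adjusted p = 0.00294), with 4.51, 4.76, 4.03, 5.70 and 4.85 CPM in untreated cells and 6.50, 5.97, 7.32, 5.57 and 6.34 CPM in the knockdown. RPL22 rose by 0.34 ± 0.08 (adjusted p = 0.00206), RPS6, the substrate of S6 kinase, by 0.32 ± 0.12 (adjusted p = 0.0326) and RPL41 by 0.28 ± 0.10 (adjusted p = 0.0288). RPS6 without replicate 5 changed by 0.18 (adjusted p = 0.0429), and RPL41 without replicates 4 and 5 by 0.44 (adjusted p = 0.00015).

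RPS29 was the core gene that fell in the knockdown, by 0.44 on the log2 scale (SE 0.12, edgeR adjusted p = 0.00479). Its values were 373, 348, 351, 251 and 235 CPM. Replicates 4 and 5 lay well below the other 3, and replicate 1 was the one inside the untreated range of 358 to 538 CPM. With lane as a factor RPS29, RPL41 and RPS27 missed an adjusted p of 0.05 in the knockdown (0.525, 0.501 and 0.485). Their changes in that fit were -0.31, 0.29 and 0.34, and those of RPS3A, RPS6 and RPL22 were 1.95, 1.15 and 0.86. RPS29 was thus lower than in untreated cells in each of the 3 comparisons, which share the untreated libraries.

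The MDM2-binding proteins RPL5, RPL11 and RPL23 changed little. RPL5 differed by -0.04 ± 0.09 at 90 min, -0.03 ± 0.09 at 7 days and 0.15 ± 0.09 in the knockdown (edgeR adjusted p = 0.816, 0.767 and 0.2). RPL11 differed at 7 days by -0.19 ± 0.07 (adjusted p = 0.0351), or by -0.12 without untreated replicate 4 (adjusted p = 0.0665) and -0.09 without replicates 4 and 5 (adjusted p = 0.133), with -0.17 ± 0.07 at 90 min (adjusted p = 0.114), and RPL23 differed by -0.14, -0.06 and 0.17 (adjusted p = 0.179, 0.495 and 0.0629). In the p53 pathway itself, CDKN1A (p21) rose by 1.61 at 90 min and 1.86 at 7 days and MDM2 by 1.28 and 1.78, with adjusted p of 5.86e-15, 6.38e-17, 4.23e-15 and 2.06e-18. In the knockdown CDKN1A had 260 ± 13.4 CPM (SD, n = 5) against 225 ± 17.2 in untreated cells, and MDM2 had 197 ± 7.21 against 205 ± 7.42. RPS3, which also has a role in DNA repair, and RPL3, RPL10 and RPL39, the partners of the other paralogs, did not pass an adjusted p of 0.05 in any of the 4 comparisons.

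RPS27L, the p53-inducible paralog, rose after irradiation. It had 249, 205, 222, 294 and 183 CPM in untreated cells, 293, 277, 266, 261 and 281 CPM at 90 min, 322, 330.4, 318, 311 and 305 CPM at 7 days and 293, 269.9, 278, 264 and 268 CPM in the knockdown. The 7 days libraries were above all untreated and all 90 min libraries, and in the other groups untreated replicate 4 lay as high as the treated libraries. Against untreated cells RPS27L rose by 0.25 ± 0.08 at 90 min (edgeR adjusted p = 0.0365, exact permutation p = 0.0635), by 0.46 ± 0.09 at 7 days (adjusted p = 7.63e-05, exact permutation p = 0.00794) and by 0.25 in the knockdown (adjusted p = 0.0229, exact permutation p = 0.0794). These changes were under the 0.5 threshold. At 7 days RPS27L passed it without untreated replicate 4, at 0.54 (adjusted p = 3.13e-07), and with sequencing lane as a factor it passed in all 3 comparisons, at 0.61, 0.87 and 0.78 (adjusted p = 0.0011, 0.000355 and 0.00853). Between 90 min and 7 days it rose by 0.20 (adjusted p = 0.0423). That rise missed an adjusted p of 0.05 in 14 of 20 fits that each left out 1 library. Without untreated replicate 5 the changes were 0.18, 0.37 and 0.16, with adjusted p of 0.0607, 9.97e-05 and 0.0664, and without replicates 4 and 5 they were 0.28, 0.47 and 0.27, with adjusted p of 0.00023, 2.79e-08 and 0.000166.

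As in many core genes, RPS27L was highest among the untreated libraries in replicate 4 and lowest in replicate 5. It was therefore also set against the core median of each library, an alternative chosen after the values were seen. On that scale all libraries of each treated group exceeded all untreated ones. The changes relative to the core were 0.42 ± 0.06 at 90 min (edgeR adjusted p = 2.71e-05), 0.52 ± 0.06 at 7 days (adjusted p = 8.44e-08) and 0.23 ± 0.06 in the knockdown (adjusted p = 0.00434), and 0.11 ± 0.06 between 7 days and 90 min (adjusted p = 0.113). With this scaling the median of all genes moved to 0.11, 0.05, -0.05 and -0.09 in the 4 comparisons.

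**Figure D4:**
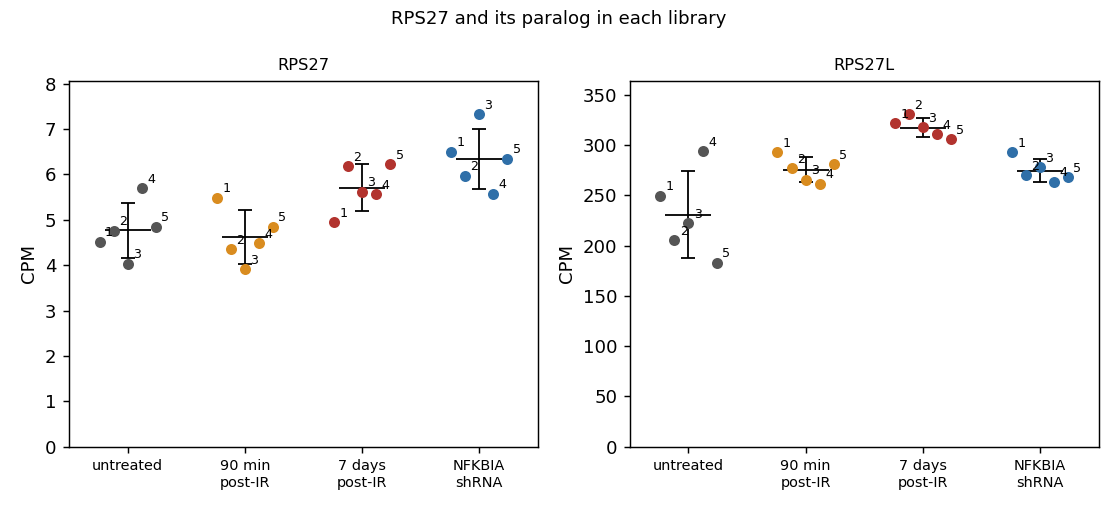
CPM of RPS27 (left) and RPS27L (right) in each library (points, numbered by replicate) of the 4 groups, with mean and SD (bars); the axes differ. RPS27L runs from 305 to 330.4 CPM at 7 days and from 183 to 294 CPM in untreated cells, and RPS27 is highest in the knockdown.

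The same scale showed unequal change within the core. At 7 days RPL41 (-0.38 ± 0.09) and RPS29 (-0.31 ± 0.09) were below the untreated libraries in every library (edgeR adjusted p = 0.00158 and 0.00709), and RPL22 (0.28 ± 0.06, adjusted p = 0.000469) was above. RPL22 was also above in every knockdown library (0.31 ± 0.06, adjusted p = 0.000551), as were RPS27 (0.38 ± 0.09, adjusted p = 0.00426) and RPS3A (0.48 ± 0.15, adjusted p = 0.0168). RPS3A exceeded all untreated libraries at 90 min too (0.53 ± 0.15, adjusted p = 0.0163), the single core gene called higher under this scaling, against 4.02% of all genes (0.474% lower). Without untreated replicate 5 the changes of RPS3A on this scale were 0.36 at 90 min, under the threshold, and 0.31 in the knockdown (adjusted p = 0.000233 and 0.000388). Libraries relative to the core median did not overlap in 2 core genes higher and 3 lower at 90 min (10.3 and 0.607% of all genes), 6 and 15 at 7 days (22.8 and 13.2%) and 6 and 2 in the knockdown (5.71 and 7.9%). At 7 days 0 core genes were called higher and 1 lower (18.3 and 12.9% of all genes), in the knockdown 0 in either direction (4.15 and 8.51%), and for 7 days against 90 min 0 higher and RPL41 lower (13.7 and 16.4%).

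**Figure D5:**
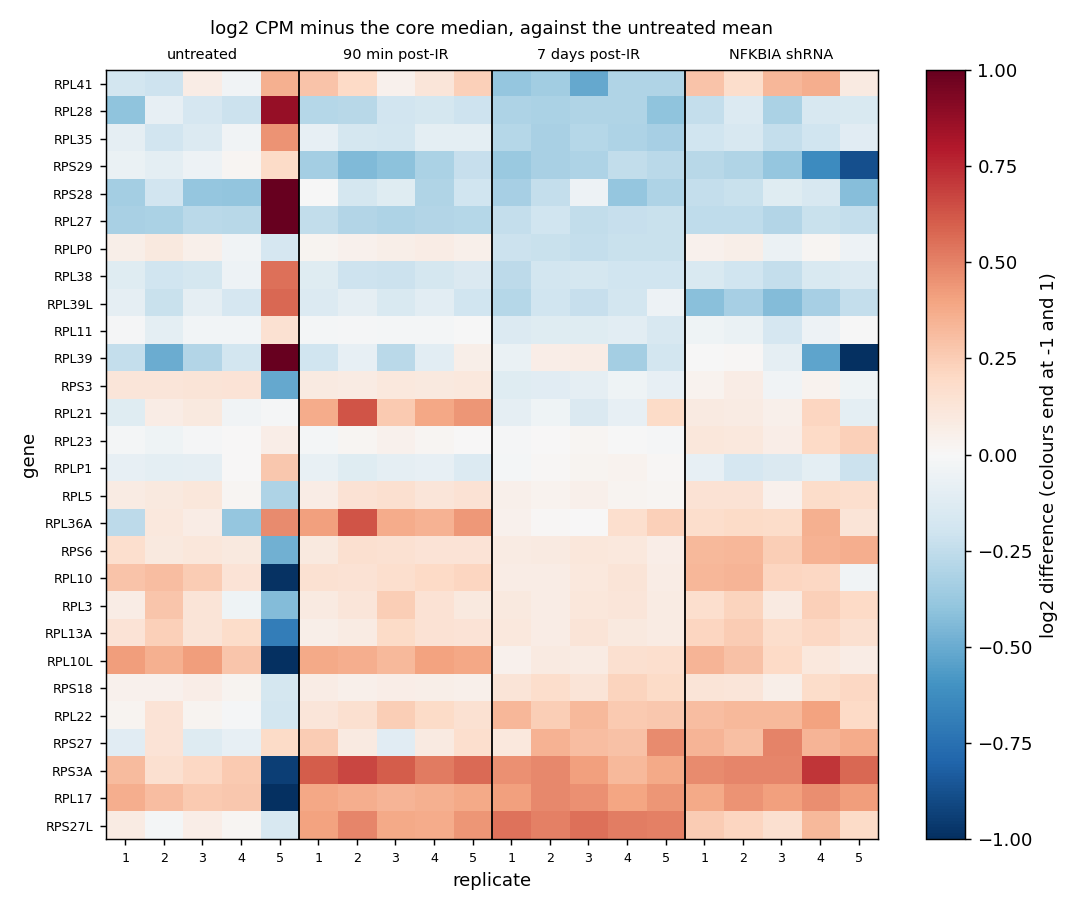
Log2 CPM minus the core median of the library, as a difference from the untreated mean, for ribosomal genes reported here (vertical axis, ordered by their 7 days value) in each of the 20 libraries (horizontal axis). RPS27L is above its untreated libraries in all treated ones, RPL41 is lower at 7 days, and untreated replicate 5 differs from replicates 1 to 4 in many genes.

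The remaining paralogs gave other values. RPL39L, a copy of RPL39 known from testis and tumour cells, had 21.2, 17.1, 19.1, 24.7 and 29.2 CPM in untreated cells, 17.3 to 19.3 CPM at 90 min, 17.3 to 19.9 CPM at 7 days and 16.1 to 19.1 CPM in the knockdown. It fell by 0.30, 0.25 and 0.32 on the log2 scale (edgeR adjusted p = 0.0375, 0.0311 and 0.0132), with overlapping libraries each time. The falls were 0.09, 0.07 and 0.13 without untreated replicates 4 and 5, with adjusted p of 0.311, 0.383 and 0.111. RPL10L, an intronless copy of RPL10, had 399, 363, 427, 402 and 58 counts in untreated cells, replicate 5 again apart, and did not pass the test in any comparison (adjusted p between 0.507 and 0.941). RPL3L, a muscle copy of RPL3, had 2 to 6 counts in untreated cells, 1 to 5 at 90 min, 4 to 12 at 7 days and 1 to 2 in the knockdown and was not tested. Of 4 paralogs with other name endings, RPL22L1 rose at 7 days by 0.54 ± 0.09 (adjusted p = 3.2e-05) and in the knockdown by 0.44 ± 0.09 (adjusted p = 0.000631), and RPL7L1 fell in the knockdown by 0.56 (adjusted p = 1.08e-06).

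Base composition was set beside the changes. Across the 74 core genes, GC content of the coding sequence and log2 fold change had a Spearman rho of -0.41 at 90 min, -0.39 at 7 days and -0.35 in the knockdown, which share the untreated libraries, and of -0.14 between 7 days and 90 min. The part of GC content in the results was not tested.

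Mitochondrial ribosomal protein genes, 76 in all, had medians close to those of the core, at -0.13, -0.11 and 0.02 in the 3 comparisons with untreated cells, and 6 were called lower at 7 days. For comparison with the 31.1% of all genes called at 7 days, other lists were counted. Of 40 ribosome biogenesis genes, 6 were called higher and 2 lower at 7 days, with a median of 0.17; RRP12, a factor of subunit export, rose by 1.02 and WDR43, a processome subunit, by 0.75, while the methyltransferase gene FBL fell by 0.89 (edgeR adjusted p = 6.83e-12, 1.09e-12 and 9.03e-09). Of 11 genes for RNA polymerase I and its factors, 2 were called higher and 1 lower at 7 days: RRN3 rose by 0.68 and POLR1B by 0.52, and UBTF fell by 0.75 (adjusted p = 3.3e-07, 1.07e-06 and 2.27e-10). At 90 min and in the knockdown, where 3.66 and 12.7% of all genes were called, none of the 40 and none of the 11 were.

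Regulators of TOP mRNAs were looked at last. Of 17 genes of mTORC1 signalling and TOP control, the sestrins SESN1 and SESN2, stress-induced inhibitors of mTORC1, were called higher at 90 min, by 1.36 and 1.14 (edgeR adjusted p = 8.24e-11 and 7.54e-07), and at 7 days, by 1.12 and 0.70 (adjusted p = 7.62e-11 and 3.47e-05). At 7 days, where 16.7% of all genes were called higher and 14.4% lower, 3 of the 17 were called higher and 2 lower, a share near that of all genes, DDIT4 by -1.11 and EIF4EBP1, the translation repressor 4E-BP1, by -0.57 (adjusted p = 0.0151 and 0.013). In the knockdown 0 of 17 were called, against 12.7% of all genes. Of 19 translation factors and related TOP genes, 1 was called, NAP1L1, which fell by 0.56 at 7 days (adjusted p = 3.17e-08). The core proteins RPSA and FAU, which the naming rule leaves out, were not called in any comparison.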

How the data were processed

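RNA-seq counts of 20 libraries were used, with groups and sequencing lanes from the labels. The methods give stranded mRNA libraries and single reads of 100 bases. The labels' processing notes name bcl2fastq, Trimmomatic, STAR 2.4.2a and hg19; the counting tool, its annotation and strand setting are not given in the sources used here, so that overlapping genes may share reads. The authors deposited whole-number counts per gene, not normalized, with a gene width in bases (other columns hold names).

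The tests ran in edgeR 4.0.16 (R 4.3.3): filterByExpr with a minimum count of 10, TMM scaling, and a quasi-likelihood model over all libraries with 1 coefficient per group, tested in 4 comparisons, with Benjamini-Hochberg adjustment over 14992 genes. SEs were derived from the F statistic. Log2 CPM used a prior count of 2. CPM per library are counts divided by an effective library total, the summed counts of the genes tested times the TMM factor of the library. Exact two-sided permutation tests compared 5 against 5 libraries. On simulated counts of 14992 genes for 7 days against untreated libraries, the test called 95 of 100 genes changed 2-fold, 97 of 100 changed 4-fold and 3 unchanged ones. The simulation gave all genes the same fixed spread between libraries and held no outlying library and no lane effect. These rates therefore do not carry over to the libraries tested here, and changes under 2-fold were not simulated. Replicates labelled biological are not further described, and p-values measure the spread between these libraries. No 2 replicates agreed within sampling noise. DESeq2 1.42.0, other scalings, filters and left-out libraries were tried as alternatives.

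The members and lists were chosen with earlier results of these data known, so the listed groups are described by counts and medians without tests. Named were the paralogs, in each comparison the 5 core genes with the largest rise and fall at an adjusted p under 0.05, genes of known roles, the 5 core genes farthest from the core median, NFKBIA and up to 4 genes per list; fewer are printed, and some results are not reported here. Sequences come from RefSeq (GRCh38.p14) and GENCODE 29. The 20 columns used are all the sample columns in the table. The replicate numbers did not pair the libraries.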

Additional observations from a re-analysis of the deposited data

Results flagged for a closer look

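Among 132 groups of 5 libraries checked for a library far from the others (its gap to the nearest exceeded 0.71 of the range), 7 held one, where chance gives about 1 in 20. In untreated replicate 5, RPL27 had 1066 CPM with the nearest library at 547, and RPS28 had 13.6 CPM with the nearest at 5.87. Within the treated groups, 90 min replicate 2 had 257 CPM of RPL28 (nearest 282), 7 days replicate 2 had 462 CPM of RPL27 (nearest 428) and knockdown replicate 4 had 179 CPM of RPL35 (nearest 204). RPL3L reached 0.150 CPM in untreated replicate 3 (nearest 0.0989) and 0.0709 CPM in knockdown replicate 5 (nearest 0.0367), which are 6 and 2 counts.

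The irradiated groups differed from each other by the test of 7 days against 90 min (edgeR adjusted p in brackets) in 8 members. RPL41 (0.000577), RPL21 (0.0014) and RPL36A (0.0069) were lower at 7 days, with log2 fold changes of -0.45, -0.36 and -0.25. RPS27 (0.0157), RPLP1 (0.0357), RPL22 (0.0299), RPS18 (0.0421) and RPS27L (0.0423) were higher, with 0.30, 0.21, 0.21, 0.21 and 0.20. These 2 groups overlap in lane 4 only, through 90 min replicates 4 and 5 and 7 days replicates 1 and 2.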

How the results depend on the processing

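Counts of core genes called were small, so a change of 1 gene moves them. With sequencing lane as a factor, 19 core genes were called higher and 17 lower at 90 min (median 0.0802), 24 and 13 at 7 days (median 0.11) and 29 and 3 in the knockdown (median 0.36), and within lane 3 they were 19 and 17 at 90 min (median 0.0736); the shares of all genes called higher and lower in these fits were 11.9 and 13.6%, 21.8 and 19.5%, 13.3 and 14%, and 11.2 and 13.7%. These values rest on untreated replicate 5, the 1 untreated library in a shared lane. Without the fold threshold the calls were 2 higher and 17 lower at 90 min, 2 and 27 at 7 days, 8 and 1 in the knockdown and 4 and 3 for 7 days against 90 min. The 2 called lower at 90 min became 1 with library size alone and 0 with the 2 groups fitted alone, the replicate block, Bonferroni adjustment or untreated replicates 4 and 5 both left out; the 1 at 7 days became 0 with library size alone, Bonferroni adjustment or both libraries left out. In the knockdown 1 was called higher, not 0, with upper-quartile factors, library size alone, the replicate block or both libraries left out. With libraries scaled to the core median (chosen after seeing the data, like leaving out both libraries and leaving out libraries on this scale) 1 was called higher and 0 lower at 90 min (median 0.0354) and 1 lower in 7 days against 90 min (median -0.0635). RPS27L missed adjusted significance in several settings, given here with its log2 fold change, not its p, in brackets. At 90 min these were upper-quartile factors (0.24), no filter (0.25) and the 2 groups alone (0.28). In the knockdown it was the 2 groups alone (0.25). For 7 days against 90 min they were TMM factors from other genes (0.19), no filter (0.18) and the core scale (0.11). With Bonferroni adjustment it missed in all 4 comparisons (0.25, 0.46, 0.25 and 0.20). Leaving out 1 library gave 0 to 3 core genes called lower at 90 min and at 7 days, 0 to 1 higher and 0 to 1 lower in the knockdown and 0 to 1 lower for 7 days against 90 min, with RPS27L between 0.18 and 0.35, 0.37 and 0.54, 0.16 and 0.33, and 0.16 and 0.22; RPS27L missed an adjusted p of 0.05 in 6, 0, 2 and 14 of 20 such fits. The core median ranged from -0.20 to -0.03 at 90 min and from -0.17 to -0.03 at 7 days, and it changed sign in the knockdown (-0.0024 without untreated replicate 5, 0.12 without replicate 4) and for 7 days against 90 min (-0.009 without 90 min replicate 2, 0.042 without 7 days replicate 5). Same-numbered libraries did not deviate together (r between -0.25 and 0.12, over 0.1 in 2 of 30 pairs), and 3 of 20 libraries correlated best with their own number. DESeq2 gave the counts reported with the fold threshold and, without it, 2 and 21, 2 and 28, 8 and 1, and 4 and 4. The shares of all genes there were 12.1 and 12.5%, 32.4 and 32.6%, 19.5 and 23%, and 31.7 and 30%. Single named genes kept direction in all alternatives but 1 (RPLP0 at 7 days was at 0.0956 with lane as a factor) and missed the threshold in 228 of 1071. The causes of these shifts were not tested.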
